A study of Rattus norvegicus with 60 samples.

Results

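The genes described here are 50 genes that dividing cells use to copy and separate their chromosomes, 22 of them for mitosis and 28 for DNA replication, listed by name with no threshold on a measured value, at a point when earlier results of these data were known. 49 of the 50 were found by symbol among the 20662 genes of the count table, and all 49 had enough reads to be tested. Ccnb2 was not analysed here, which leaves 21 mitosis genes. They were placed in 12 role groups, from the cyclins and Cdk1 to the enzymes that supply nucleotides.

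Muscle of male Sprague Dawley rats, 6 to 7 weeks old, was sampled from the right hind limb at 7 times between 4 and 48 h after a weight was dropped on it under chloral hydrate, and the controls were uninjured rats of the same kind. By the paper, the injured rats were anesthetized and depilated beforehand, and the controls were killed directly, in the middle of the 48 h. Every comparison with the controls holds these differences besides the contusion. Each library came from a separate piece of muscle at the wound site, and RNA of the whole piece was sequenced, so muscle fibers, vessels, connective tissue and infiltrating blood cells were read together. There were 6 control libraries, 7 each at 4 h and 20 h, and 8 at each of the other times, which were 8, 12, 16, 24 and 48 h. The submitted extraction text names retinas, while the source is given as muscle. Muscle fiber markers were read in every library, at 36860 to 213200 CPM (read counts scaled to a common library size) summed over 9 genes. The libraries held 16372673 to 34931323 counted reads.

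One property of the count table touches every value below. Its column headings are shifted against the values, so that libraries were grouped here by the position of their column and not by its heading. In the study's table of normalized values, 1288 genes could be compared with the counts, and 49 of the 60 columns matched a named library. In each of these, at least 99.7% of the genes with a read lay within 0.5 read of a single scaling factor. The best match of any other column reached 3.13%. All 49 belonged to the group that the position gave, and 9 to the group that the heading gave. The copy of the study's table read here named 49 libraries, so the other 11 columns had none left to match and rest on position alone. Of the 8 columns at 48 h, 6 are among them. The paper removed samples it called abnormal before its analyses, while all 60 columns are used here. Except at 48 h, each group has as many matched columns as the paper kept libraries. By these counts the unmatched columns outside 48 h would be removed samples, though the paper does not name these. Which columns hold the removed samples at 48 h was not determined. With the columns grouped by their headings, 0 members were lower at 4 h and 44 were higher at 24 h, against 25 and 18 here, so each direction reported below holds for the grouping by position.

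A dividing cell first licenses its replication origins with Cdc6, Cdt1 and the MCM helicase, then copies its DNA with a clamp, polymerases and ligase, and later condenses and separates its chromosomes with Cdk1 and its cyclins, the Aurora and Polo kinases and the spindle motors. E2F factors are known to drive many replication genes as cells leave quiescence, and the DREAM and MuvB complexes, which bind the cell cycle homology region, restrain and then activate many mitotic genes. Adult muscle fibers do not divide. Dividing cells in injured muscle are known to include satellite cells, fibroblast-like progenitors, endothelial cells and leukocytes. In RNA of a whole muscle piece, fewer cells of a type and less RNA per cell cannot be told apart.

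The promoters of the members differ in a way that the choice of genes did not use. For 42 of the 49 members the RefSeq promoter table (build GRCr8) held a promoter of 300 bases, 250 before the start of transcription and 50 after it. Those of Aurkb, Ccna2, Ccne2, Cdc6, Mcm4, Rrm2 and Tpx2 were not used here. 4 short motifs were searched on both strands, the cell cycle homology region (TTTGAA), the CCAAT box (CCAAT, bound by NF-Y) and the E2F sequences TTTCCCGC and TTTGGCGC. TTTGAA was found in 12 of 18 mitosis promoters (66.7%), in 1 of 24 replication promoters (4.17%) and in 18.3% of all 33469 promoters. Either E2F sequence was found in 0 of 18 mitosis promoters, in 10 of 24 replication promoters (41.7%) and in 1.45% of all promoters. CCAAT was found in 15 of 18 mitosis promoters (83.3%), in 15 of 24 replication promoters (62.5%) and in 37.5% of all promoters. A match is a match of letters and not a measured site, and the absence of a match says only that these letters are not in that window.

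**Figure D1:**
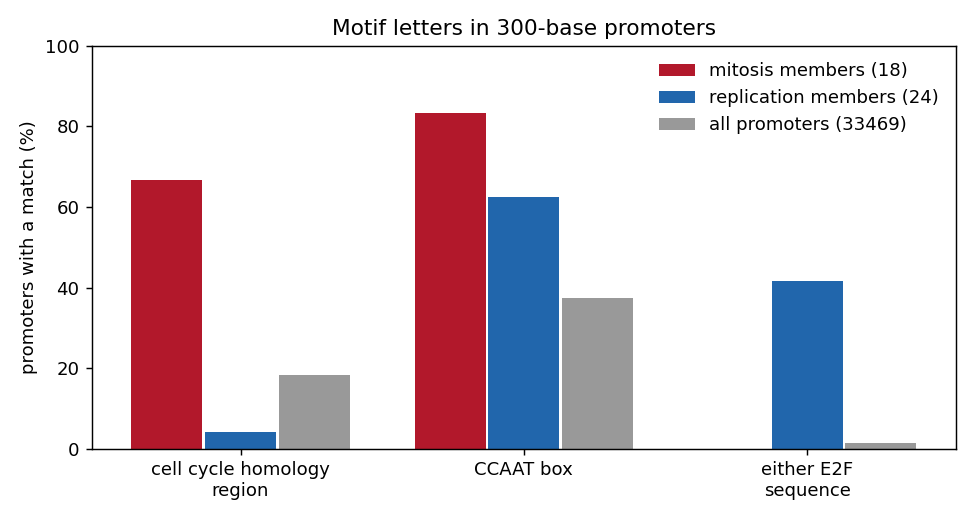
Share of promoters (%) with at least 1 match on either strand, for 18 mitosis members, 24 replication members and all 33469 promoters of the table. The cell cycle homology region stands at 66.7% in mitosis promoters and 4.17% in replication promoters, and the E2F sequences at 0% and 41.7%.

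3 promoters are shown, that with the most motif matches in each gene group and those of Mki67 and Mcm2, set by name. Mki67 met both rules. Each is 5′ to 3′ on the strand of the gene, with the matched letters of the 4 motifs in capitals on either strand. Mki67 had the most matches of the mitosis genes, with 2 of TTTGAA and 4 of CCAAT, and 1 of each overlap in it (Mki67, chr1:199952544-199952843, minus strand). Mcm5 had the most of the replication genes, with 3 of CCAAT and 1 of each E2F sequence (Mcm5, chr19:13488563-13488862, plus strand). Mcm2 was the only replication gene with TTTGAA, which it held 2 times, and it had none of the other motifs searched (Mcm2, chr4:122918045-122918344, minus strand). E2F sequences other than TTTCCCGC and TTTGGCGC were not searched. The letters TTTCGCGC, which the Mcm2 promoter holds, were not among the motifs.
Mki67: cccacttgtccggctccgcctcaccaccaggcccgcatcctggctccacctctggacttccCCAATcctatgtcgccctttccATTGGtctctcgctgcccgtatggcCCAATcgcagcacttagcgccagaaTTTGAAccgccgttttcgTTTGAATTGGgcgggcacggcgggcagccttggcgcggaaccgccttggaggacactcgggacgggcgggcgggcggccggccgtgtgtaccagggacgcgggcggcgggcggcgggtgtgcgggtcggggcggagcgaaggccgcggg
Mcm5: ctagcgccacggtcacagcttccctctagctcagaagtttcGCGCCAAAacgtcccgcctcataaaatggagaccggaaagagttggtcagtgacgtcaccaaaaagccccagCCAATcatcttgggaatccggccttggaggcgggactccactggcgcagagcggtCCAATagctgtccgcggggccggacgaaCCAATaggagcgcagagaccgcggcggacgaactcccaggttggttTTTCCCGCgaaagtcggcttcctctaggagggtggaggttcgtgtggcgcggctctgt
Mcm2: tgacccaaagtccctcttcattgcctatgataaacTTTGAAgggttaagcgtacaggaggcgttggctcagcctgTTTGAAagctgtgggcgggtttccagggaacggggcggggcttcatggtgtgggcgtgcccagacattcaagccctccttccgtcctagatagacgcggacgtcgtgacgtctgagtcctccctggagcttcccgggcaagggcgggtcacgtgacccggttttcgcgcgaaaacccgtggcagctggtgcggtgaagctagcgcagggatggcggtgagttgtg

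Over the time course the mitosis genes fell within 4 h, stayed low at 8 h and 16 h, were back near the control level at 20 and 24 h, and were several-fold above it at 48 h. Each time was compared with the controls by edgeR's quasi-likelihood test over 17155 genes, and a gene was called higher or lower at a Benjamini-Hochberg adjusted p below 0.05. At 4 h 17 of the 21 mitosis genes were called lower, with a median log2 fold change of -1.59, which is a level of 0.331 of the control. At 8 h 19 were lower (median -2.10), at 12 h 10 (median -0.88) and at 16 h 20 (median -2.03). None was called in either direction at 20 h (median -0.37), and at 24 h 1 was higher and 2 were lower (median -0.02). At 48 h all 21 were higher, with a median log2 fold change of 2.32, or 5-fold. The median over all genes tested lay between -0.0271 at 8 h and 0.0425 at 48 h.

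By median the replication genes moved less at first than the mitosis genes, and more were called higher at 20 and 24 h. At 4 h 8 of the 28 were lower and 3 were higher (median log2 fold change -0.17), at 8 h 13 and 2 (median -0.43), at 12 h 4 and 2 (median -0.17) and at 16 h 6 and 2 (median -0.28). At 20 h 4 were higher and none lower (median 0.38). At 24 h 17 were higher and none lower (median 0.79), and at 48 h 27 were higher (median 1.17, or 2.24-fold). Gins2 was the member not called at 48 h. Of all genes tested, 22.2% were lower at 4 h, 13.1% at 12 h and 16.9% at 16 h. At 20 h 12.9% were higher. The replication counts in these cases lie near or little above the share over all genes. Whether the time courses of the mitosis and the replication genes differ was not tested.

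These counts stand against a large response of the whole transcriptome. Of all genes tested, 22.8% were called higher and 22.2% lower at 4 h, 24.6% and 25.9% at 8 h, 19.1% and 13.1% at 12 h, and 20.0% and 16.9% at 16 h. At 20 h 12.9% were higher and 6.62% lower, at 24 h 21.9% and 20.1%, and at 48 h 23% and 18.2%. Of the 49 members of both lists together, 25 were lower at 4 h and 32 at 8 h, 14 at 12 h, 26 at 16 h and none at 20 h or 48 h, and 2 at 24 h. Higher were 3 at 4 h, 2 each at 8, 12 and 16 h, then 4 at 20 h, 18 at 24 h and 48 at 48 h. 20 members, 17 of mitosis and 3 of replication, were lower at 4, 8 and 16 h and higher at 48 h. These 3 replication genes were Ccne1, Gins1 and Tk1.

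**Figure D2:**
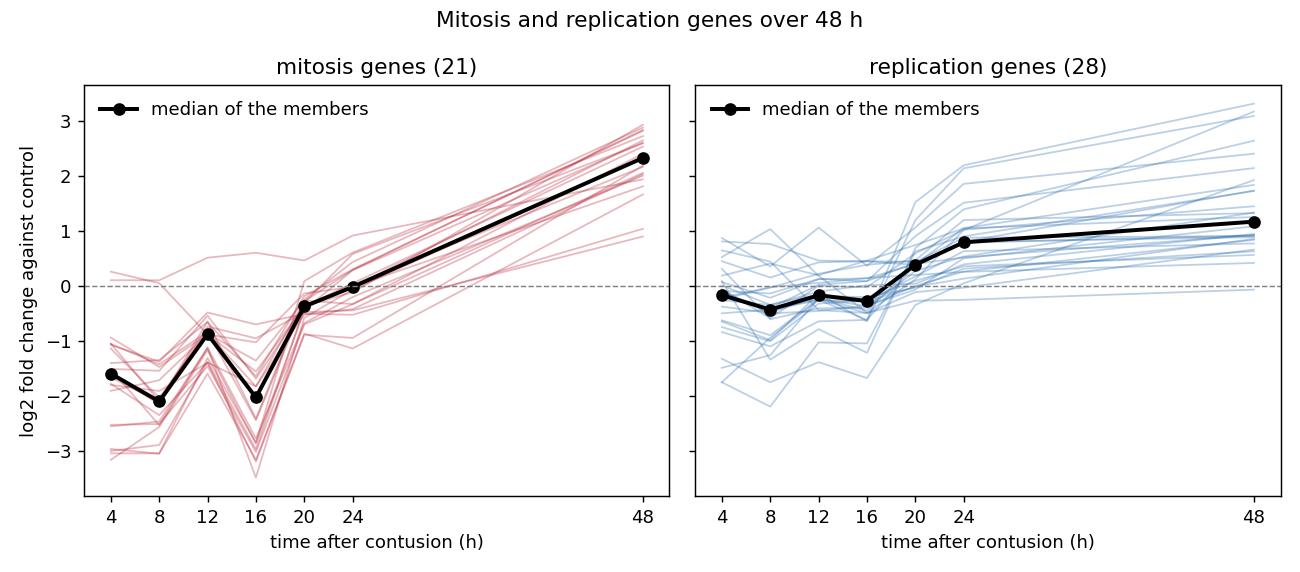
Log2 fold change against control (y axis) at each time after contusion in hours (x axis) for 21 mitosis genes and 28 replication genes, 1 thin line a gene, with the median of the genes in black. The median of the mitosis genes is -2.10 at 8 h and 2.32 at 48 h, and that of the replication genes is -0.43 and 1.17.

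Mki67, the proliferation marker Ki-67 that coats mitotic chromosomes, showed the pattern in full. Values are given as lowest to highest with the median in parentheses, in CPM scaled with edgeR's TMM factors. Mki67 had 7.36 to 18.8 (16.5) CPM in the controls, 0.532 to 11.9 (1.17) at 4 h, 0.453 to 10.2 (1.35) at 8 h, 2.602 to 9.52 (5.02) at 12 h, 0.965 to 3.43 (1.56) at 16 h, 2.82 to 17.4 (10.4) at 20 h, 5.32 to 22.2 (12.7) at 24 h and 19.3 to 119 (87.8) at 48 h. 6 of the 7 libraries at 4 h and 7 of the 8 at 8 h were below every control, and every library at 48 h was above every control. The log2 fold change was -2.52 ± 0.54 (SE) at 4 h, -3.02 ± 0.52 at 16 h and 2.40 ± 0.53 at 48 h (edgeR, adjusted p = 0.00012, 8.39e-06 and 0.000207). Top2a, the topoisomerase that untangles replicated chromosomes, had 4.599 to 11.97 (9.37) CPM in the controls, 0.114 to 9.598 (0.152) at 4 h, 0.225 to 1.74 (0.671) at 16 h and 11.3 to 70.3 (47.3) at 48 h. Its median at 20 h was 4.52 CPM, just below the lowest control, and at 24 h 8.18, among the controls.

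Among the mitotic cyclins and their kinase, all 3 genes found fell at 4, 8 and 16 h and rose at 48 h. Cdk1, the kinase that starts mitosis, had 3.04 to 7.31 (5.13) CPM in the controls, 0.0761 to 2.39 (0.399) at 4 h, 0.138 to 2.54 (0.459) at 8 h, 0.681 to 3.27 (2.04) at 12 h, 0.154 to 1.52 (0.569) at 16 h, 1.87 to 5.55 (4.27) at 20 h, 2.92 to 9.53 (5.24) at 24 h and 6.42 to 38.05 (24.8) at 48 h. Every library at 4, 8 and 16 h was below every control. The log2 fold change was -3.0 ± 0.50 at 4 h and 2.16 ± 0.46 at 48 h (edgeR, adjusted p = 1.87e-06 and 0.000139), and the lowest library at 48 h, at 6.42 CPM, lay among the controls. Ccna2, the cyclin of S phase and early mitosis, had 1.98 to 6.302 (3.81) CPM in the controls, 0.0381 to 1.87 (0.266) at 4 h, 0.148 to 1.24 (0.444) at 16 h and 6.52 to 36.2 (25.6) at 48 h. Its log2 fold change of -3.16 ± 0.54 at 4 h was the lowest of all members at that time. Ccnb1, the B-type cyclin that activates Cdk1, had 1.06 to 3.01 (2.29) CPM in the controls, 0.266 to 3.32 (0.383) at 4 h, 0.225 to 1.17 (0.573) at 16 h and 4.28 to 22.2 (15.8) at 48 h, and at 48 h it lay above every control.

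The spindle checkpoint genes fell at 4, 8 and 16 h, all 4 of them, and rose at 48 h, Bub1 least. Bub1, a checkpoint kinase at the kinetochore, had 10.8 to 14.6 (13.1) CPM in the controls, 4.11 to 7.902 (6.31) at 4 h, 1.56 to 4.03 (3.15) at 8 h, 4.199 to 14.2 (7.13) at 12 h, 4.82 to 7.99 (7.15) at 16 h, 2.38 to 11.8 (10.5) at 20 h, 5.97 to 11.9 (9.61) at 24 h and 10.3 to 30.7 (26.3) at 48 h. Its lowest level was at 8 h, where no library reached the controls, with a log2 fold change of -2.10 ± 0.23 (edgeR, adjusted p = 6.76e-11), and at 48 h it was 0.90 ± 0.23 (adjusted p = 0.00119 by the same test) with 1 library below the controls. Bub1b, which encodes the checkpoint protein BubR1, had 0.778 to 2.36 (1.24) CPM in the controls, 0.0362 to 1.14 (0.207) at 8 h and 3.24 to 15.8 (10.7) at 48 h. Ttk, the kinase Mps1 that starts the checkpoint, had 0.495 to 2.24 (1.43) CPM in the controls, 0 to 0.38 (0.12) at 8 h and 2.14 to 13.4 (9.71) at 48 h. Cdc20, the activator of the anaphase-promoting complex that the checkpoint holds back, had 2.901 to 6.02 (4.75) CPM in the controls, 0.623 to 2.54 (1.395) at 8 h and 5.68 to 29.9 (20.9) at 48 h. Cdc20 was above the controls in 7 of 8 libraries at 48 h. A few members were read so rarely early on that single libraries held 0 reads, 5 of 60 libraries for Ttk and 1 each for Aurkb, Bub1b, Cdc6 and Cenpe. A count of 0 allows up to 0.207 CPM for Ttk, by counting error alone.

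The mitotic kinases divided into Aurka and the rest. Aurka, the Aurora kinase of centrosomes and spindle poles, had 2.48 to 3.54 (2.89) CPM in the controls, 1.83 to 4.93 (3.12) at 4 h, 1.93 to 3.99 (3.28) at 8 h, 1.73 to 6.19 (4.18) at 12 h, 3.38 to 6.61 (3.99) at 16 h, 2.76 to 5.08 (4.06) at 20 h, 2.66 to 7.3 (5.58) at 24 h and 3.83 to 16.96 (11.2) at 48 h. It was the mitosis gene that was lower at no time, and it was the mitosis gene called higher at 24 h, with a log2 fold change of 0.91 ± 0.26 (edgeR, adjusted p = 0.00296) and 1.93 ± 0.26 at 48 h. Aurkb, the Aurora kinase of the chromosomal passenger complex, had 1.77 to 3.99 (2.62) CPM in the controls, 0 to 3.15 (0.314) at 8 h, 0.0536 to 1.15 (0.443) at 16 h and 4.28 to 24.3 (17.2) at 48 h. Plk1, the Polo kinase of mitotic entry and cytokinesis, had 1.27 to 2.87 (1.82) CPM in the controls, 0.109 to 2.02 (0.573) at 8 h, 0.101 to 0.709 (0.481) at 16 h and 3.44 to 23.2 (15.5) at 48 h, and its log2 fold change of 2.93 ± 0.47 at 48 h was the largest of the mitosis genes. Birc5, the passenger subunit survivin, had 0.446 to 2.67 (1.42) CPM in the controls, 0.0725 to 1.69 (0.407) at 8 h, 0.207 to 1.01 (0.479) at 16 h and 2.54 to 17.8 (11.4) at 48 h. Aurkb and Plk1 were called lower at 8 and 16 h, and Birc5 at 4, 8 and 16 h.

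**Figure D3:**
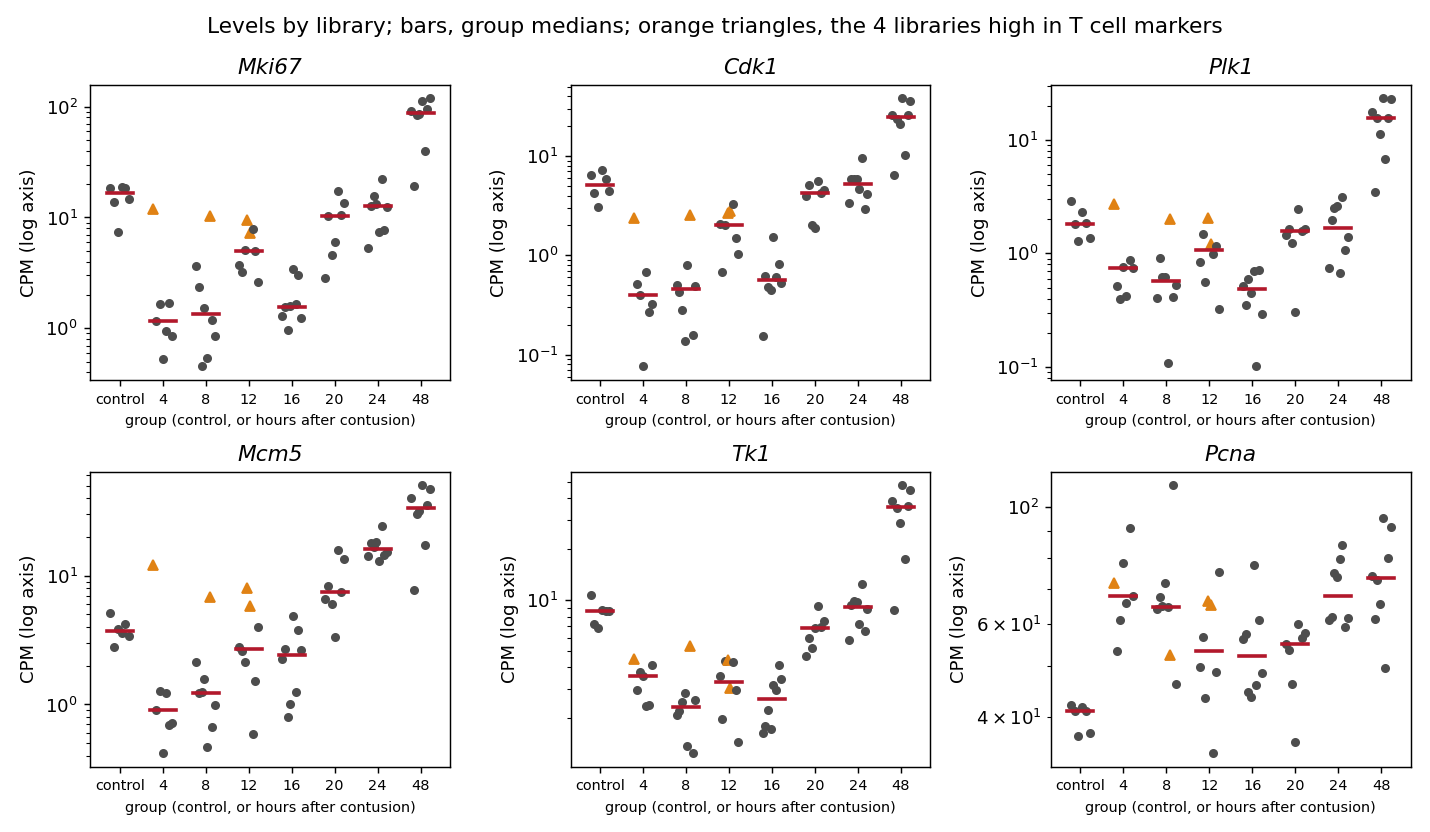
Level in CPM (log axis) of Mki67, Cdk1, Plk1, Mcm5, Tk1 and Pcna in each of the 60 libraries by group, with the group median as a bar and the 4 libraries high in T cell markers as triangles. Mki67 falls from a median of 16.5 CPM in the controls to 1.17 at 4 h and reaches 87.8 at 48 h, while the median of Pcna is 41 in the controls and above that at every time.

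Of the 8 kinetochore and spindle genes, 7 were lower at 4 h, 7 at 8 h and 8 at 16 h, and all 8 were higher at 48 h. Tpx2, which brings Aurora A to spindle microtubules, was the exception early on and had 5.31 to 10.1 (8.23) CPM in the controls, 3.97 to 19.5 (6.75) at 4 h, 2.75 to 24.7 (5.12) at 8 h, 3.15 to 5.33 (4.33) at 12 h, 2.54 to 5.44 (3.43) at 16 h, 4.51 to 11.6 (7.48) at 20 h, 5.65 to 10.5 (7.58) at 24 h and 11.6 to 36.8 (29.6) at 48 h. The highest libraries at 4 and 8 h, at 19.5 and 24.7 CPM, were above every control and were not among those high in T cell markers described below, and Tpx2 was lower at 12 h (-0.88 ± 0.32) and at 16 h (-1.03 ± 0.32; edgeR, adjusted p = 0.01). Kif20a, a kinesin of the central spindle, had 6.82 to 9.24 (8.497) CPM in the controls, 2.297 to 3.86 (3.45) at 8 h, 3.97 to 7.25 (5.87) at 24 h and 7.12 to 23.5 (18.4) at 48 h, and it was still lower at 24 h (-0.53 ± 0.20). Nusap1, which bundles spindle microtubules, had 2.41 to 6.23 (4.33) CPM in the controls, 0.131 to 2.02 (0.261) at 8 h, 0.79 to 3.84 (1.94) at 24 h and 3.69 to 20.1 (14.7) at 48 h, and it too was lower at 24 h (-1.14 ± 0.44). Prc1, which crosslinks the microtubules of the spindle midzone, had 5.48 to 11.3 (7.33) CPM in the controls, 1.09 to 2.37 (1.34) at 8 h, 3.45 to 8.73 (5.91) at 24 h and 10.2 to 47.1 (33.6) at 48 h.

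The other 4 of that group behaved alike in direction. Cenpe, a kinesin of the kinetochore, had 1.96 to 3.22 (2.396) CPM in the controls, 0 to 2.66 (0.246) at 8 h and 6.47 to 24.4 (18.5) at 48 h. Cenpf, a large kinetochore protein, had 1.42 to 6.25 (3.63) CPM in the controls, 0.0375 to 0.787 (0.423) at 16 h and 4.78 to 25.1 (19.2) at 48 h, and its log2 fold change of -3.19 ± 0.48 at 16 h was the lowest of the kinetochore and spindle genes. Kif11, the motor Eg5 that pushes spindle poles apart, had 2.98 to 5.35 (3.23) CPM in the controls, 0.0691 to 2.66 (0.452) at 8 h and 4.93 to 22.5 (16.6) at 48 h. Kif23, the kinesin of the centralspindlin complex, had 1.2 to 3.78 (2.45) CPM in the controls, 0.488 to 1.18 (0.807) at 16 h and 4.98 to 21.2 (15.6) at 48 h. Cenpe and Kif23 lay above every control at 48 h, and Cenpf and Kif11 overlapped the controls in their lowest libraries.

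The MCM helicase, which unwinds DNA at the fork, is a ring of 6 subunits, and its genes did not move as 1 block. Mcm5 had 2.78 to 5.11 (3.699) CPM in the controls, 0.418 to 12.04 (0.911) at 4 h, 0.471 to 6.78 (1.23) at 8 h, 0.588 to 7.96 (2.72) at 12 h, 0.804 to 4.84 (2.44) at 16 h, 3.34 to 15.8 (7.46) at 20 h, 12.9 to 24.5 (15.97) at 24 h and 7.77 to 50.4 (33.4) at 48 h. At 4 and 8 h every library but 1 each lay below the controls, the exceptions being the 2 libraries high in T cell markers described below, and neither time was called. It was higher at 24 h, with a log2 fold change of 2.13 ± 0.55, and at 48 h, with 3.09 ± 0.57 (edgeR, adjusted p = 0.00126 and 1.53e-05), where no library overlapped the controls. Mcm7 had 30.6 to 36.2 (32.5) CPM in the controls, 21.7 to 39.6 (28.2) at 4 h, 27.96 to 39.4 (31.2) at 8 h, 27.7 to 41.04 (33.4) at 12 h, 29.3 to 41.6 (36.1) at 16 h, 27.4 to 54.9 (36.8) at 20 h, 33.6 to 43.1 (39.6) at 24 h and 34.9 to 53.2 (45.1) at 48 h. It was called at 48 h alone, at 0.42 ± 0.11 (edgeR, adjusted p = 0.00224). CPM does not correct for gene length, so levels are not compared between genes.

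Mcm2, the subunit whose promoter is printed above, had 11.3 to 13.9 (13.2) CPM in the controls, 5.78 to 15.2 (8.07) at 8 h, 16.01 to 25.9 (17.8) at 20 h, 21.8 to 34.7 (25.6) at 24 h and 13.6 to 49.7 (36.8) at 48 h. It was lower at 8 h (-0.59 ± 0.20) and higher at 20 h (0.59 ± 0.21). Mcm3 had 3.45 to 7.14 (5.91) CPM in the controls, 2.93 to 52.1 (3.33) at 4 h, 15.3 to 31.6 (19.1) at 24 h and 8.77 to 44.7 (29.7) at 48 h, and the highest of its 60 values, 52.1 CPM, was in the library high in T cell markers at 4 h. Mcm4 was the subunit called higher at 4 h (0.45 ± 0.18) and had 19.5 to 24.96 (21.2) CPM in the controls, 20.3 to 39.5 (29.1) at 4 h, 32.7 to 47.4 (39.1) at 24 h and 15.9 to 55.3 (41.5) at 48 h. Mcm6 had 5.87 to 8.89 (7.86) CPM in the controls, 3.896 to 12.5 (6.24) at 8 h, 8.89 to 21.9 (12.8) at 20 h, 16.5 to 31.4 (21.6) at 24 h and 8.91 to 49.98 (35.2) at 48 h and was higher from 20 h on. At 24 h Mcm2, Mcm3, Mcm5 and Mcm6 lay above every control, as did Mcm4, and at 48 h the lowest libraries of Mcm2 and Mcm4 lay among or below the controls again.

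Among the genes that license and fire origins, Cdc6 rose the most and Gins2 behaved unlike the others. Cdc6, which loads the helicase, had 0.511 to 0.98 (0.592) CPM in the controls, 0 to 0.623 (0.143) at 4 h, 0.131 to 0.789 (0.254) at 8 h, 0.237 to 1.08 (0.496) at 12 h, 0.0375 to 1.01 (0.424) at 16 h, 1.11 to 2.87 (1.997) at 20 h, 1.83 to 4.505 (2.98) at 24 h and 1.69 to 9.66 (7.54) at 48 h. Every library from 20 h on was above every control, and the log2 fold change went from -1.75 ± 0.52 at 4 h to 1.52 ± 0.47 at 20 h, 2.19 ± 0.47 at 24 h and 3.31 ± 0.49 at 48 h (edgeR, adjusted p = 0.00486, 0.0176, 0.000145 and 2.22e-07). Gins2, a subunit of the GINS complex that completes the active helicase, had 16.1 to 21.7 (19.6) CPM in the controls, 20.3 to 39.7 (31.2) at 4 h, 20.1 to 30.4 (26.04) at 8 h, 11.4 to 16.1 (14.6) at 12 h, 11.3 to 15.9 (13.6) at 16 h, 13.1 to 17.8 (15.9) at 20 h, 11.2 to 19.8 (16.2) at 24 h and 13.7 to 23.03 (18.04) at 48 h. It was higher at 4 h (0.64 ± 0.13) and 8 h (0.44 ± 0.12), lower at 12 h (-0.44 ± 0.12) and 16 h (-0.49 ± 0.12), and not called at 48 h (-0.07 ± 0.12; edgeR, adjusted p = 0.693). Scaled by library totals alone, which moves the median of all genes at 48 h to 0.65, its value there was 0.56. Gins1, its partner in the complex, was lower at 4, 8, 12 and 16 h and had 1.39 to 2.52 (1.95) CPM in the controls, 0.571 to 1.24 (0.911) at 8 h, 2.46 to 5.69 (3.91) at 24 h and 3.39 to 10.1 (6.95) at 48 h.

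Mcm10, a factor of helicase activation, had 0.754 to 1.82 (1.15) CPM in the controls, 0.196 to 0.76 (0.452) at 8 h, 1.74 to 4.64 (3.28) at 24 h and 2.54 to 12.04 (7.15) at 48 h, and Cdc45, the other partner of the active helicase, had 2.93 to 3.802 (3.15) CPM in the controls, 1.59 to 2.81 (2.24) at 8 h, 3.82 to 5.84 (4.34) at 24 h and 3.35 to 10.1 (7.24) at 48 h. Both were lower at 8 h and higher at 24 and 48 h. Cdt1, which loads the helicase with Cdc6, was lower at no time, was higher at 20 h (0.74 ± 0.21), and had 3.75 to 6.51 (5.07) CPM in the controls, 4.35 to 9.76 (6.64) at 8 h, 6.03 to 12.01 (7.93) at 20 h and 4.13 to 16.3 (12.6) at 48 h.

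Pcna, the sliding clamp that is also used in DNA repair, was higher from the first hours. It had 36.7 to 42.1 (41) CPM in the controls, 53.3 to 91.2 (67.8) at 4 h, 46.2 to 109.9 (64.7) at 8 h, 34.1 to 75.1 (53.3) at 12 h, 43.6 to 77.5 (52.2) at 16 h, 35.8 to 59.95 (55.03) at 20 h, 59.2 to 84.5 (67.6) at 24 h and 49.5 to 95.2 (73.3) at 48 h. No library at 4 h overlapped the controls, with a log2 fold change of 0.81 ± 0.16 (edgeR, adjusted p = 3.6e-05), against 0.88 ± 0.16 at 48 h, and it was called higher at each time except 20 h (0.38 ± 0.16; adjusted p = 0.0804 by edgeR). Of the clamp loader subunits, Rfc4 had 9.45 to 13.02 (10.6) CPM in the controls, 6.63 to 13.5 (8.66) at 4 h, 6.11 to 11.4 (8.58) at 8 h, 7.68 to 12.3 (9.52) at 12 h, 7.69 to 10.9 (8.88) at 16 h, 8.97 to 14.7 (10.8) at 20 h, 10.97 to 16.5 (13.5) at 24 h and 9.91 to 21.1 (16.1) at 48 h. Rfc4 was called at 48 h alone, at 0.56 ± 0.15 (edgeR, adjusted p = 0.00248). Without the 11 columns that match no named library it was 0.43 (edgeR, adjusted p = 0.105). Rfc3 was lower at 4 and 8 h and had 8.17 to 9.55 (8.97) CPM in the controls, 1.69 to 7.07 (4.32) at 8 h, 9.89 to 16.6 (13.9) at 24 h and 5.98 to 19.5 (16.5) at 48 h, and Rfc5 was higher at 24 and 48 h, with 6.82 to 10.7 (7.28) CPM in the controls, 5.21 to 8.42 (6.79) at 8 h, 9.87 to 13.4 (11.04) at 24 h and 11.8 to 18 (15.5) at 48 h.

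Of the polymerases and primase, Prim1, the subunit that makes the RNA primer, had 5.85 to 11.8 (9.51) CPM in the controls, 4.72 to 12.8 (6.66) at 4 h, 7.17 to 10.3 (8.93) at 8 h, 7.42 to 13.5 (10.4) at 12 h, 7.91 to 15.8 (11.9) at 16 h, 9.27 to 15.5 (13.5) at 20 h, 16.99 to 30.1 (19.2) at 24 h and 8.66 to 34.2 (22.2) at 48 h. Every library at 24 h was above every control (1.20 ± 0.20; edgeR, adjusted p = 3.41e-06), and the value at 48 h was 1.32 ± 0.20. Pola1, the catalytic subunit of the polymerase that extends primers, had 5.87 to 7.27 (6.51) CPM in the controls, 2.297 to 5.43 (3.14) at 8 h and 5.03 to 15.9 (12.1) at 48 h. Pole, that of the leading strand polymerase, had 4.28 to 5.81 (4.75) CPM in the controls, 2.21 to 6.31 (2.76) at 8 h and 6.82 to 17.1 (12.7) at 48 h. Pold1, that of the lagging strand polymerase, had 7.75 to 10.9 (8.91) CPM in the controls, 4.69 to 9.85 (5.32) at 8 h and 7.47 to 18.8 (15.2) at 48 h. All 3 were lower at 8 h and higher at 48 h, and none was called at 24 h. Fen1, which trims Okazaki fragments, had 5.09 to 6.64 (6.44) CPM in the controls, 4.18 to 5.93 (5.48) at 4 h, 3.19 to 6.43 (4.995) at 8 h, 4.505 to 8.12 (5.89) at 12 h, 5.47 to 8.21 (6.38) at 16 h, 6.14 to 10.5 (7.73) at 20 h, 9.19 to 12.4 (10.7) at 24 h and 6.52 to 15.7 (11.6) at 48 h. It was lower at 8 h (-0.40 ± 0.16) and higher at 24 h (0.78 ± 0.16) and 48 h (0.92 ± 0.16; edgeR, adjusted p = 4.41e-06). Lig1, the ligase that joins the fragments, had 2.75 to 4.88 (3.46) CPM in the controls, 1.796 to 4.35 (2.58) at 8 h, 3.74 to 6.55 (4.301) at 24 h and 3.69 to 9.29 (7.26) at 48 h and was called at 48 h alone.

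The genes that supply nucleotides separated by subunit. Rrm1, the large subunit of ribonucleotide reductase, had 42.4 to 48.9 (44.4) CPM in the controls, 36.9 to 47.1 (41.1) at 4 h, 22.97 to 44.8 (32.6) at 8 h, 27.6 to 48.4 (38.99) at 12 h, 27.4 to 37.9 (31.8) at 16 h, 35.5 to 50.8 (41.8) at 20 h, 39.4 to 51.2 (43.5) at 24 h and 36.9 to 87.5 (74.2) at 48 h. It was lower at 8 h (-0.43 ± 0.12) and 16 h (-0.50 ± 0.12) and higher at 48 h (0.66 ± 0.12; edgeR, adjusted p = 2.23e-05). Rrm2, the small subunit that is made in S phase, had 0.849 to 2.31 (1.25) CPM in the controls, 0.93 to 4.099 (1.86) at 4 h, 1.105 to 5.87 (2.77) at 8 h, 0.408 to 2.86 (1.38) at 12 h, 0.263 to 3.04 (0.467) at 16 h, 0.394 to 3.63 (1.45) at 20 h, 0.998 to 6.39 (2.64) at 24 h and 4.73 to 19.6 (13.3) at 48 h. It was called at 48 h alone, where every library lay above every control, at 3.17 ± 0.51 (edgeR, adjusted p = 1.09e-06). Tk1, the salvage kinase of thymidine, had 6.86 to 10.8 (8.596) CPM in the controls, 1.24 to 5.35 (2.35) at 8 h, 1.64 to 4.15 (2.59) at 16 h, 5.82 to 12.5 (9.14) at 24 h and 8.71 to 47.97 (35.5) at 48 h and followed the mitosis genes, lower at 4, 8, 12 and 16 h and not called at 20 or 24 h. Tyms, which makes thymidylate, had 1.89 to 3.57 (2.71) CPM in the controls, 0.342 to 2.33 (0.797) at 4 h, 3.08 to 8.32 (4.61) at 24 h and 3.14 to 12.4 (9.44) at 48 h, lower at 4 and 8 h and higher at 24 h.

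The E cyclins, which drive entry into S phase with Cdk2, moved in the same direction early and late. Ccne2 had 4.104 to 6.72 (5.68) CPM in the controls, 3.16 to 5.72 (3.83) at 4 h, 3.59 to 5.17 (4.14) at 8 h, 4.2 to 5.84 (4.74) at 12 h, 3.398 to 6.43 (4.64) at 16 h, 1.66 to 8.98 (5.99) at 20 h, 4.98 to 7.86 (5.85) at 24 h and 6.72 to 13.5 (10.3) at 48 h. It was lower at 4 h (-0.50 ± 0.20) and higher at 48 h (0.85 ± 0.19; edgeR, adjusted p = 0.000268). Ccne1 had 1.06 to 2.86 (1.93) CPM in the controls, 0.128 to 0.964 (0.294) at 8 h, 1.74 to 4.53 (3.62) at 24 h and 1.54 to 10.5 (6.03) at 48 h, was lower at 4, 8, 12 and 16 h, and was higher at 24 h (0.90 ± 0.38).

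**Figure D4:**
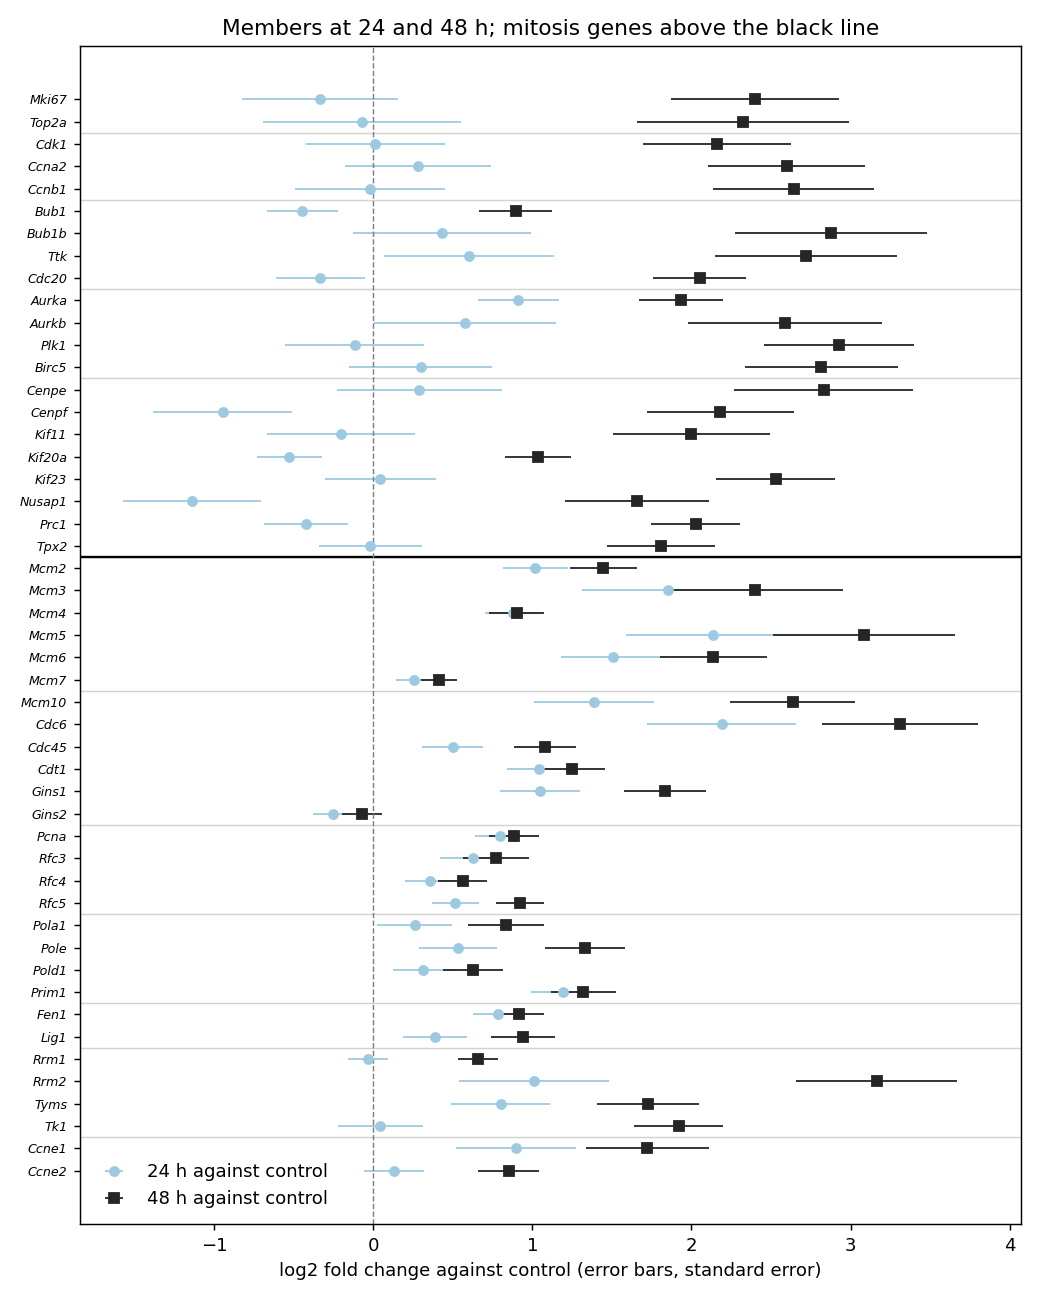
Log2 fold change against control with its standard error (x axis) at 24 h (circles, 8 libraries) and 48 h (squares, 8 libraries) for the 49 members in role order, with grey lines between role groups. At 24 h Cdc6 and Mcm5 reach 2.19 and 2.13 while Mki67 and Plk1 stand at -0.33 and -0.12, and at 48 h Gins2 is the 1 member left at -0.07.

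Each time was also compared with the time before, in 6 steps that share their groups with the comparisons against control. From 16 to 20 h 19 members rose and none fell, where 1.25% of all genes tested rose and 0.659% fell. 13 of the 19 were mitosis genes, among them Ttk, Top2a and Cdk1 at 2.94 ± 0.57, 2.90 ± 0.66 and 2.55 ± 0.45, and 6 were replication genes, led by Cdc6 at 2.14 ± 0.43. From 24 to 48 h 30 members rose and none fell, where 3.61% of all genes rose and 2.49% fell. All 21 mitosis genes were among them, with a median log2 fold change of 2.39, and 9 of 28 replication genes, with a median of 0.56 over the 28. Cenpf and Plk1 moved the most, at 3.13 ± 0.43 and 3.04 ± 0.42, and none of the 6 MCM subunits was called, at 0.03 to 0.95.

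From 8 to 12 h 15 members rose and 2 fell, where 12.4% of all genes rose and 9.94% fell. 9 of the 15 were mitosis genes, with Ttk and Cdk1 at 1.74 ± 0.58 and 1.51 ± 0.44, and the 2 that fell were Tpx2 (-0.93 ± 0.30) and Gins2 (-0.88 ± 0.12). The count at 12 h depends on the libraries used, with 31 members that rose when only columns matching a named library entered and 7 when only the 8 and 12 h libraries did.

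The other 3 steps called few members. From 4 to 8 h 3 members fell, Bub1 (-1.05 ± 0.22), Mcm10 (-1.43 ± 0.37) and Pole (-0.92 ± 0.23), and none rose, where 9.45% of all genes rose and 7.93% fell. From 12 to 16 h Cenpf alone fell (-1.79 ± 0.45; edgeR, adjusted p = 0.042) and none rose, where 0.0933% of all genes rose and 0.536% fell, although the median log2 fold change of the mitosis genes was -1.20 and that of the replication genes -0.02. At an unadjusted p below 0.05 the same edgeR test had 14 members lower and 0 higher for this step, and DESeq2 called 7 lower. From 20 to 24 h Prim1 (0.73 ± 0.19) and Cdc45 (0.57 ± 0.18) rose and none fell, where 1.61% of all genes rose and 4.33% fell. The counts of these 3 steps change with the alternatives given at the end.

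Genes of the same pathways outside the 49 were also counted. Of 31 other kinetochore, spindle and cytokinesis genes, 22 were lower at 4 h, 24 at 8 h and 19 at 16 h, and 28 were higher and none lower at 48 h, with a median log2 fold change of 2.13 at that time. Cenpa, the histone variant of centromeres, stood at 3.01 ± 0.61, and Anln, the cytokinetic ring protein anillin, at 2.74 ± 0.39. Of 29 other replication genes, 11 were lower at 4 h and 13 at 8 h, where 22.2% and 25.9% of all genes were lower. For 12 h the count was 4, against 13.1% of all genes, and for 16 h it was 6, against 16.9%. The counts for 12 and 16 h thus lie near or little above the share over all genes. At 24 h 13 of the 29 were higher and 3 lower. At 48 h, when 23% of all genes were higher and 18.2% lower, 18 of the 29 were higher and 3 lower (median 0.87). Asf1b, a histone chaperone, was the highest of the 29, at 2.77 ± 0.70. The 3 lower at 48 h were Orc4, Orc5 and Pola2, named here after their values were seen, with Pola2, the accessory subunit of the priming polymerase, at -1.10 ± 0.25.

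The genes that set the pace of entry into the cycle were mixed. Of 16 G1 cyclins, CDKs and E2F-related factors, 11 were higher and 1 lower at 48 h (median 0.75). Mybl2, the B-Myb subunit that activates MuvB, stood at 3.24 ± 0.55, and E2f8, a repressor E2F that is itself made in S phase, at 2.01 ± 0.56. Of 8 CDK inhibitors and pocket proteins, 4 were higher and 2 lower at 48 h (median 0.54). Among all genes tested, 23% were higher and 18.2% lower at that time. The 2 lower of 8 thus lie near the share over all genes. Cdkn1a, the inhibitor p21, was higher at all 7 times, from 3.10 to 3.81, and at 3.10 ± 0.39 at 48 h, when the mitosis genes were at their highest. Cdkn1c, the inhibitor p57, stood at -1.93 ± 0.27.

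Markers of other cell types changed over the same times. Macrophage markers summed to 243.8 to 401.5 CPM in the controls and 1281 to 3201 at 48 h, with 13 of 14 genes higher and none at 0 reads in any library, and the summed muscle fiber markers went from 169800 to 204600 CPM down to 36860 to 116800, with 8 of 9 genes lower. At 48 h the mean log2(CPM + 1) of the mitosis genes was 4.24 to 4.81 in 6 libraries, and 2.75 and 3.44 in the other 2, which also had the lowest macrophage sums of the group, 1288 and 1281 CPM. Both are among the 6 columns at 48 h that rest on position alone. The one at 3.44 also had the highest muscle fiber sum of the group, 116800 CPM. At 4 and 8 h macrophage sums were 606.2 to 2058 and 804.4 to 2373 CPM, above the controls, while the mean log2(CPM + 1) of the mitosis genes was below every control in 6 of 7 libraries at 4 h and 7 of 8 at 8 h. The 2 exceptions, at 2.29 and 1.91, lay among the controls (1.89 to 2.64), and the one at 4 h held the highest macrophage sum of its group. Neutrophil markers summed to 5.23 to 13.9 CPM in the controls, 302.5 to 807.2 at 4 h, 615.7 to 2448 at 8 h and 36.6 to 140.3 at 48 h, with 10 of 12 genes higher at 4 and 8 h and 6 at 48 h. Satellite cell and myoblast markers summed to 2585 to 3301 CPM in the controls and 2457 to 3960 at 48 h, with 2 of 10 genes higher and 2 lower. Fibroblast markers fell in 7 of 9 cases at 4 h, from 3958 to 6387 CPM in sum to 1754 to 2412. Their median sums, in time order from control to 48 h, were 5300, 2157, 1830, 4161, 3151, 5897, 3829 and 6575 CPM. Between neighboring times, 7 of the 9 genes rose from 8 to 12 h, 4 from 16 to 20 h and 3 from 24 to 48 h. None fell in these steps. Against control, 2 of the 9 were higher and none lower at 48 h, with sums of 2521 to 9330 CPM. Endothelial markers went from 802.7 to 946.2 CPM in sum to 361 to 590.5 at 4 h and 537.2 to 659.1 at 48 h, with 4 of the 6 tested lower at 4, 8 and 48 h and none higher at these times. Erythroid markers, 5 genes, summed to 155.2 to 507.5 CPM in the controls and 32.33 to 148.6 at 16 h. At 20 h they summed to 325.7 to 682 CPM, and at 24 h to 24.77 to 148.1. From 16 to 20 h 4 of the 5 rose, and from 20 to 24 h 4 of the 5 fell. The part of any cell type in the members' levels was not tested.

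T cell markers stood apart in 4 libraries, 1 at 4 h, 1 at 8 h and 2 at 12 h, where their mean log2(CPM + 1) lay more than 3 scaled median absolute deviations above the median of all libraries. Their 13 T cell genes summed to 187.3 to 553.7 CPM where the controls had 10.6 to 25.8, and their 7 B cell genes summed to 127.2 to 365.6 CPM where the controls had 1.32 to 14.4. In these libraries the mitosis genes had a mean log2(CPM + 1) of 1.84 to 2.29, and in the other libraries they had 0.87 to 1.05 at 4 h, 0.73 to 1.09 at 8 h and 1.27 to 1.90 at 12 h. At 12 h the ranges thus overlapped, and the library with the least T cell signal there (12 h library 6, at 1.90) was above 1 of the 2 high in T cell markers (1.84). That 12 h library matches no named library, and its macrophage sum of 306.9 CPM lay among the controls (243.8 to 401.5). Without the 4 libraries the median log2 fold change of the mitosis genes went from -1.59 to -2.44 at 4 h, and 28 members were lower at 4 h, 24 of them among the 25 named lower with all libraries. At 8 h 34 were lower, all 32 among them, and at 12 h 18, with 12 of the 14 among them. At 48 h 21 mitosis and 27 replication genes were higher with or without them. The 7 markers of lymph node stroma summed to at most 854.8, 509.4 and 576.1 CPM at 4, 8 and 12 h. Their medians there were 12.87, 24.45 and 62.2 CPM, the controls had 19.26 to 55.96, and the highest at 24 h was 136.7. Whether lymph node tissue was part of any piece was not tested.

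**Figure D5:**
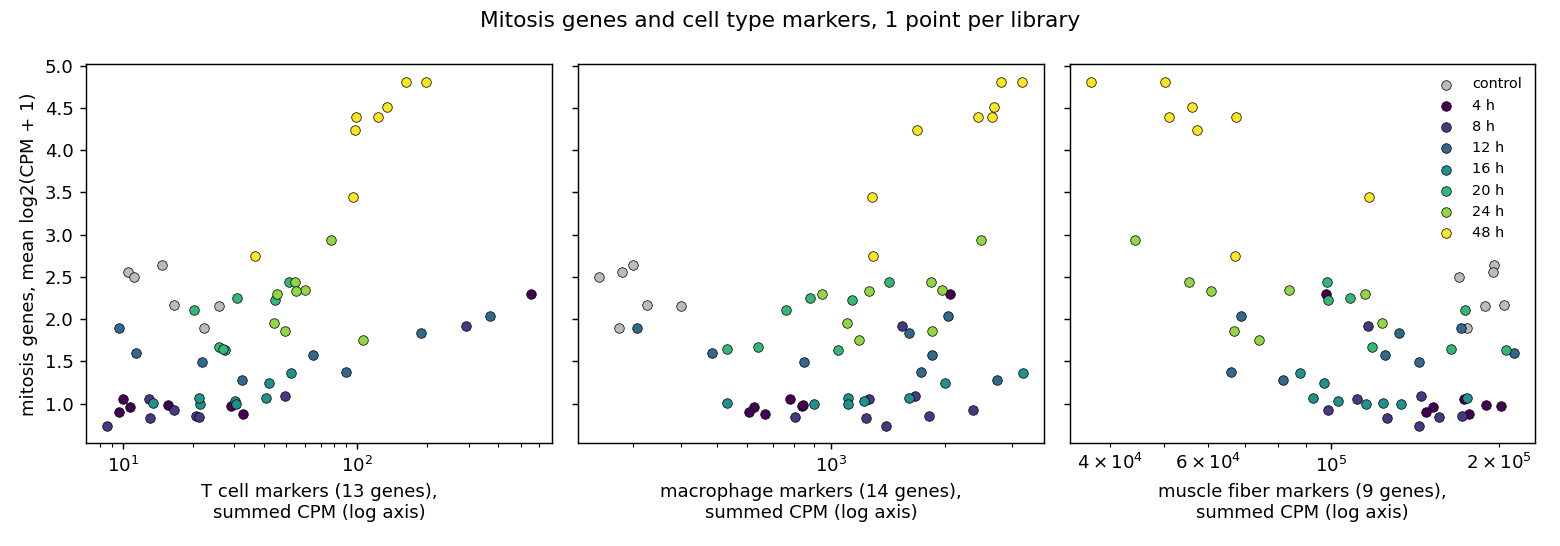
Mean log2(CPM + 1) of the 21 mitosis genes (y axis) against the summed CPM (log axis) of T cell, macrophage and muscle fiber markers, 1 point a library, coloured by group. The 4 libraries at 4, 8 and 12 h with T cell sums of 187.3 CPM or more stand at 1.84 to 2.29, and 6 of the 8 libraries at 48 h stand at 4.24 or above.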

How the data were processed

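The deposited table holds read counts per gene, which the authors made from paired reads with Trimmomatic, HISAT2 2.1.0 (rn6) and HTSeq 0.6.1, per the labels. Counting used the reverse strand and uniquely aligned reads. No gene lengths were at hand, so levels stay in CPM of the TMM-scaled total.

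Columns were grouped by position, and the paper's removal of abnormal samples was not repeated. edgeR 4.0.16 (R 4.3.3) was run on all 60 columns as deposited, with TMM factors, 1 coefficient a group, genes with at least 5 reads in total (17155) and Benjamini-Hochberg adjustment over all genes in each comparison. Standard errors are the log2 fold change divided by the square root of F. The scripts were tested on simulated data. Alternatives used DESeq2 1.42.0, other scalings, filters and sets of columns. Depth of 16372673 to 34931323 reads sets the precision of low genes. Each edgeR p-value sets a group difference against the spread between libraries, estimated over all 8 groups. Motifs were matched with Python 3.11.15. No 2 columns of a group were the same library.

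The members, gene lists and tests were chosen with earlier results of these data known. Full values are given for the gene with the highest mean CPM in each of the 12 role groups and for the 3 largest and 3 smallest log2 fold changes at 48 h. The rule also asked for them for the 36 members lower than control at any time. These were too many, and those not named by the other parts of the rule are given at selected groups. At most 4 genes a pathway list are named, by size of change at 48 h, apart from those said to be chosen after their values were seen.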

Additional observations from a re-analysis of the deposited data

Results flagged for a closer look

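4 values stood apart from the other libraries of their group, with a gap to the nearest library larger than Dixon's test allows at the 95% level. They belong to 2 libraries. In the 4 h group of 7, library 1 had a mean log2(CPM + 1) of 2.293 over the mitosis genes, where the next was 1.052, and of 3.394 over the replication genes, where the next was 2.686. In the 8 h group of 8, library 6 had 1.913 over the mitosis genes, where the next was 1.09, and 3.055 over the replication genes, where the next was 2.708. Chance flags about 1 in 20 groups. Both libraries are among the 4 with high T cell markers, at 553.7 and 293.5 CPM in sum, and both are among the 11 columns that match no named library. At 4 and 8 h the number of matched columns equals the number of libraries the paper kept after removing abnormal samples. By these counts the 2 would be among those removed, though the paper does not name the removed samples.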

How the results depend on the processing

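Counts below are of members, with those reported in parentheses. The stricter filter on low counts left every count within 1.5 times of the one reported, as did DESeq2 except for 5 lower from 4 to 8 h (3) and 7 lower from 12 to 16 h (1), and the 48 h count against control (48) stayed within that under every alternative except the shallow libraries. RLE scaling and a term for depth each left 1 higher at 12 h (2). Scaling by library totals gave 16 lower at 4 h (25), 3 at 12 h (14) and 0 at 24 h (2), 6 higher at 16 h (2) and 10 at 20 h (4), and 1 lower from 8 to 12 h (2). This scaling moved all genes too. Of the 17155 tested, 3853 were then higher at 20 h (2207) and 924 lower at 12 h (2252). With 2-fold also required, 0 were higher at 4, 8, 12 and 16 h, 1 at 20 h and 9 at 24 h (18), 8 were lower at 12 h and 1 at 24 h, and from 8 to 12 h 8 were higher (15) and 0 lower. Fits of only the 2 groups compared gave 4 higher at 16 h and 7 at 20 h, 2 lower at 20 h (0) and 4 at 24 h, and 7 higher and 1 lower from 8 to 12 h. Columns matching a named library gave 4 higher at 12 h, 5 at 16 h and 12 at 20 h, 1 lower at 20 h, and 31 higher from 8 to 12 h. Without the libraries high in T cell markers, 0 were higher at 12 h and 8 at 20 h.

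Grouped by headings, 0 were higher and 0 lower at 4 h. At 8 h 0 were higher (2) and 1 lower (32), at 12 h 1 and 2, at 16 h 12 (2) and 1 (26), then 29 and 1 at 20 h, and 44 and 1 at 24 h. 2 were lower at 48 h (0), 0 were higher and 0 lower from 8 to 12 h, and 0 higher from 16 to 20 h (19) and from 24 to 48 h (30). Mcm4 (-0.007) and Pcna (-0.447) then changed sign at 48 h, as Gins2 (0.56) did with library totals. The causes of these changes were not tested.

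The 3 steps with few calls moved more. For 4 to 8 h (0 higher, 3 lower), named columns gave 2 and 6, and leaving out libraries high in T cell markers gave 2 higher. Headings gave 1 lower, as did libraries under 25000000 reads, and those over it gave 3 higher and 1 lower. For 12 to 16 h (1 lower), named columns gave 11. The count was 0 with library totals, only the groups compared, a depth term, no libraries high in T cell markers, headings and either side of 25000000 reads. For 20 to 24 h (2 higher), library totals gave 14, only the groups compared 8, no libraries high in T cell markers 5 and named columns 1. It was 0 by headings, with 2-fold required and on either side of 25000000 reads. Of all genes, 3444 of 17155 rose in this step with library totals and 656 of 16233 with only the groups compared (276 of 17155).

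The split at 25000000 reads was chosen after the data were seen. Over it, 0 were higher at 12, 16 and 20 h, 6 lower at 12 h and 0 at 24 h, 2 higher and 1 lower from 8 to 12 h, and 8 higher from 16 to 20 h. Under it, with fewer libraries in each group, 1 was higher at 4 h (3), 0 at 12, 16 and 20 h, 5 at 24 h and, of the 48 at 48 h, 30, while 4 were lower at 4 h, 12 at 16 h and 0 at both 12 and 24 h, 0 were higher and 1 lower from 8 to 12 h, and 0 were higher from 16 to 20 h and from 24 to 48 h. No paired analysis was possible because the columns carry no replicate numbers that could be relied on and each library is from a different rat.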
